A study of Mus musculus with 18 samples.

Results

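The 7 genes described here encode receptors of itch-sensing and nonpeptidergic pain-sensing neurons: Mrgprd, Mrgprx1, Mrgpra3, Mrgprb4 and Mrgprb5 of the Mas-related G protein-coupled receptor (Mrgpr) family, the cytokine receptor subunit Il31ra and the lysophosphatidic acid (LPA) receptor Lpar3. They were taken by symbol from a table of estimated counts for 51290 genes, and all 7 were found. RNA had been sequenced from 18 mouse samples in 3 groups of 6, made to compare a malignant tumour of the peripheral nerve sheath (MPNST) with its benign counterpart, the plexiform neurofibroma. The MPNST came from PostnCre+ mice homozygous for floxed alleles of Nf1 and Arf (flox/flox), the plexiform neurofibromas were trigeminal nerves of Nf1 flox/flox PostnCre+ mice, and the normal nerves were trigeminal nerves of Nf1 flox/flox PostnCre- mice. All 3 groups thus carried floxed Nf1, the gene of the RAS regulator neurofibromin. The MPNST and neurofibroma mice also carried a Cre recombinase under the promoter of Postn (periostin), and only the MPNST mice had floxed Arf, a tumour suppressor of the Cdkn2a locus. The labels give no ages, and no body site for the MPNST. The MPNST came from 6 mice. For the trigeminal groups no label says that the samples came from separate animals, so p-values measure the spread between these samples.

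Small-diameter sensory neurons of the trigeminal and dorsal root ganglia include nonpeptidergic nociceptors, which lack the neuropeptides of the peptidergic class and in the mouse are divided by the receptors they carry. Mrgprd, a receptor for beta-alanine, marks the most abundant nonpeptidergic class, which also carries Lpar3. Mrgpra3, which responds to chloroquine, and Mrgprx1, which responds to peptides such as BAM8-22, mark itch-sensing fibres, and Il31ra marks a further itch class that carries somatostatin. Mrgprb4 marks fibres of hairy skin that respond to stroking, and Mrgprb5 is its close paralogue. The transcription factor RUNX1 is needed for these classes to form.

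The regions upstream of these genes are shown because all 7 are receptors of small-diameter sensory neurons, and Lpar3 was the only one with counts in every MPNST library. Of the 7, 6 had an upstream window in the RefSeq table of build GRCm38.p6. Each window is the 250 bases before the annotated start, 5′ to 3′ on the gene's strand, and CG dinucleotides are in capitals. The windows lie at chr7:145314585-145314834 on the plus strand for Mrgprd, chr7:48027598-48027847 on the minus strand for Mrgprx1, chr13:112580663-112580912 on the minus strand for Il31ra and chr3:146220711-146220960 on the plus strand for Lpar3.
Mrgprd: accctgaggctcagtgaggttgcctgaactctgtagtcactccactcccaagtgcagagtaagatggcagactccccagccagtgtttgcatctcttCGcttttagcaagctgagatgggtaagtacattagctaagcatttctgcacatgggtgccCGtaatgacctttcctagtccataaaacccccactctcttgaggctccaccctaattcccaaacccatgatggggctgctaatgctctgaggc
Mrgprx1: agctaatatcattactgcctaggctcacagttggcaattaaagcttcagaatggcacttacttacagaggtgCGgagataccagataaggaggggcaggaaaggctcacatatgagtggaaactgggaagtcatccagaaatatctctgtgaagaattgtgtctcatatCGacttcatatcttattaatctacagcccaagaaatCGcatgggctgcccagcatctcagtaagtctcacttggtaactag
Il31ra: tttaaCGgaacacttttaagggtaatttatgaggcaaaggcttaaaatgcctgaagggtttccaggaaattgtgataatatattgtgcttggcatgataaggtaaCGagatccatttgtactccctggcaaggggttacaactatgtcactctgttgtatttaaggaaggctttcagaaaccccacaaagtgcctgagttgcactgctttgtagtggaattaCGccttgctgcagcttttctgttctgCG
Lpar3: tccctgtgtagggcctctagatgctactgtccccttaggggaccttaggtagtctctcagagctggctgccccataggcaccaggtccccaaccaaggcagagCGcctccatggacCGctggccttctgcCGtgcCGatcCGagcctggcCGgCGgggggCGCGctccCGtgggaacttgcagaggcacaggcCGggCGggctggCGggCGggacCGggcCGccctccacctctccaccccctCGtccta

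The Lpar3 window held 17 CG dinucleotides and had a GC content of 69.6%. Mrgprd had 2 and 51.2%, Mrgprx1 3 and 43.6%, Il31ra 4 and 42%, and Mrgprb4 and Mrgprb5 each had 2 and 38.4%. Of the Mrgprb4 and Mrgprb5 windows, 110 and 34 bases lie in exons annotated by GENCODE M21, so these windows are not wholly upstream sequence. Over all 32851 windows of this length the median was 6 CG dinucleotides and 52.4% GC, and 37.8% of windows held 10 or more. Among the 6 matched genes only Lpar3 was in that CG-rich share. Whether this relates to its counts in MPNST was not tested. The RUNX core motifs TGTGGT and TGCGGT, searched on both strands, occurred in 14% and 5.1% of all windows. They occurred in 0 of the 6 windows, which says only that these letters are not in these 250 bases.

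In the trigeminal libraries all 7 receptors were detected in every sample, and Mrgprd was by far the most abundant. Levels are compared between genes as counts scaled to the library total (CPM), divided by the length in kilobases of the longest transcript in GENCODE M21. In neurofibromas Mrgprd averaged 26.1 ± 8.68 CPM per kb (SD, n = 6), followed by Lpar3 at 10.4 ± 2.69 and Mrgpra3 at 6.54 ± 2.87 CPM per kb. Mrgprb4 averaged 5.07 ± 2.25, Mrgprx1 4.28 ± 0.486, Mrgprb5 2.38 ± 0.768 and Il31ra 1.63 ± 0.76 CPM per kb there. In normal nerves the order was Mrgprd at 32.8 ± 6.45 CPM per kb, Lpar3 at 15.3 ± 3.40, Mrgprb4 at 7.06 ± 2.54, Mrgprb5 at 5.77 ± 2.49, Mrgpra3 at 5.62 ± 1.27, Mrgprx1 at 5.29 ± 1.43 and Il31ra at 3.05 ± 1.39. Mrgprd stood clear of Lpar3 in both groups, with no overlap of their ranges over libraries. Every other pair of neighbours in either order overlapped. Il31ra has 8 annotated transcripts, so its length, and with it its last place, depends on the isoform. In share of the 7 genes' summed CPM, Mrgprd held 59.9 ± 2.17% in neurofibromas and 57.4 ± 2.24% in nerves, and Lpar3 held 19.2 ± 2.65% in neurofibromas and 20.9 ± 1.31% in nerves (SD, n = 6 each).

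**Figure D1:**
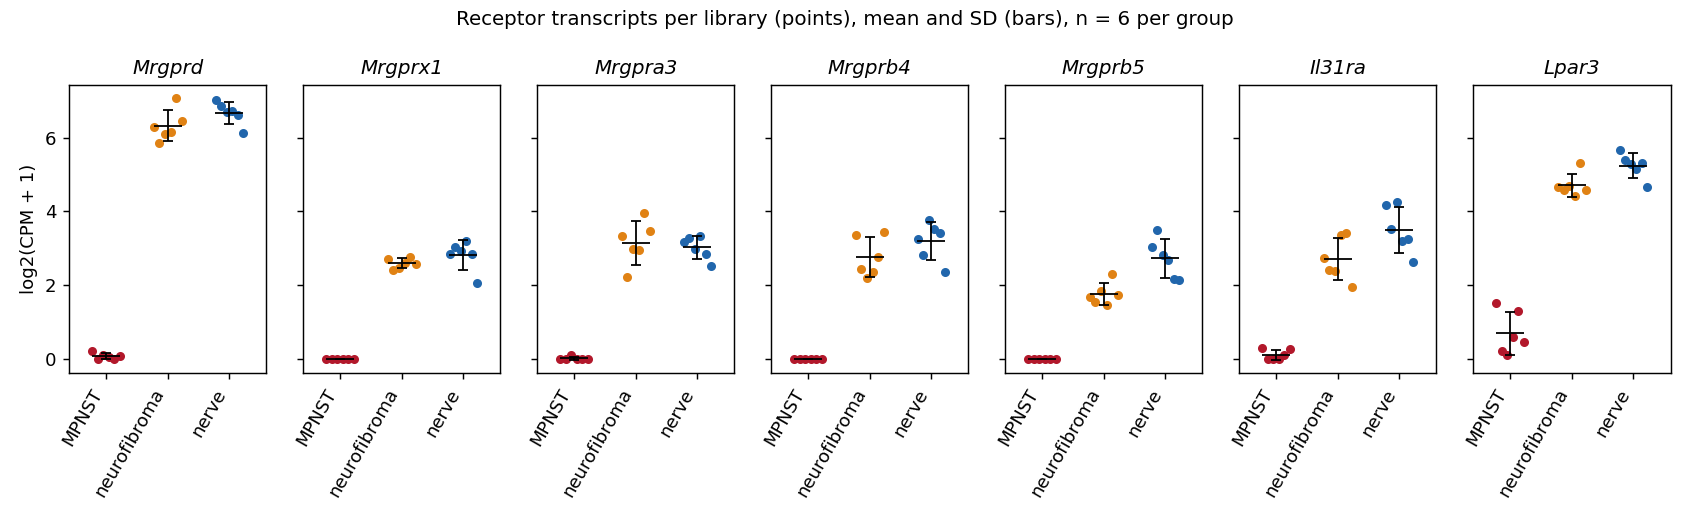
Level of each receptor as log2(CPM + 1), 1 point per library, for MPNST, neurofibroma and nerve from left to right, with the mean and SD as bars (n = 6 per group). The MPNST points lie at or near 0 for 6 receptors and slightly higher for Lpar3, below every trigeminal library, while neurofibroma and nerve overlap for all 7.

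Between neurofibroma and normal nerve, both trigeminal, 1 of the 7 receptors differed past the threshold. Mrgprb5 fell, with a level in neurofibromas under that of most nerves, and the other 6 did not pass (edgeR quasi-likelihood test, Benjamini-Hochberg adjusted p below 0.05 over all genes tested). In that comparison 13.9% of the 16464 genes tested were called, and 6% were called lower. A count of 1 in 7 is near that background. The median log2 change, neurofibroma over nerve, was -0.48 over the 7 receptors, with 6 of 7 below 0, and -0.02 over all genes tested.

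Mrgprd had 56.7, 73.5 and 133.8 CPM as lowest, median and highest value in neurofibromas, against 69.0, 103.4 and 129.7 CPM in nerves. The groups overlapped, and 2 neurofibroma libraries lay below every nerve. The log2 change was -0.34 (SE 0.20, adjusted p = 0.265). Without neurofibroma library 5, the highest for Mrgprd, it was -0.53 (adjusted p = 0.0438). Leaving out the highest neurofibroma lowers the change in any case. Mrgprd stayed uncalled in 11 of the 12 fits that left out 1 library (adjusted p up to 0.43).

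The Mrgpr receptors of itch fibres were lower in abundance than Mrgprd, and neither passed the test. Mrgprx1 had 4.33, 5.04 and 5.77 CPM in neurofibromas, against 3.14, 6.40 and 8.11 CPM in nerves. Of the nerves, 5 lay above every neurofibroma and 1, library 6, lay below every neurofibroma. The log2 change was -0.31 (SE 0.20, adjusted p = 0.309), and without nerve library 6 it was -0.45 (adjusted p = 0.0362). Mrgprx1 stayed uncalled in 11 of the 12 fits without 1 library (adjusted p up to 0.45). Mrgpra3 had 3.64, 7.94 and 14.6 CPM in neurofibromas, against 4.78, 7.45 and 9.06 CPM in nerves. It was the 1 receptor with a positive change, 0.21 (SE 0.28, adjusted p = 0.642), which was -0.01 (adjusted p = 0.981) without neurofibroma library 5. The neurofibromas spread more widely than the nerves, with a coefficient of variation of 43.9% against 22.6%.

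The paralogues Mrgprb4 and Mrgprb5 both had lower means in neurofibromas, and the change of Mrgprb5 alone was called. Mrgprb4 had 3.58, 5.11 and 9.86 CPM in neurofibromas, against 4.13, 9.17 and 12.7 CPM in nerves, a log2 change of -0.48 (SE 0.32, adjusted p = 0.324). Mrgprb5 had 1.76, 2.27 and 3.97 CPM in neurofibromas, against 3.41, 5.76 and 10.3 CPM in nerves. Of the neurofibromas, 5 lay below every nerve, and 4 nerves lay above every neurofibroma. Mrgprb5 fell by 1.29 on the log2 scale (SE 0.30, adjusted p = 0.0161, edgeR), and the call held in each of the 12 fits that left out 1 library, with adjusted p from 0.00572 to 0.0406. The summed counts behind it were 264 in neurofibromas and 635 in nerves. The log2 ratio of Mrgprb5 to Mrgprb4 counts, a measure chosen after the values were seen, was -1.27 ± 0.71 in neurofibromas and -0.54 ± 0.80 in nerves (SD, n = 6 each). The difference of -0.73 did not pass an exact two-sided permutation test (p = 0.121, smallest possible 0.00216), so a change of Mrgprb5 distinct from that of Mrgprb4 was not shown.

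Il31ra, which pairs with Osmr to form the interleukin-31 receptor, had 2.87, 4.98 and 9.62 CPM in neurofibromas, against 5.17, 9.54 and 17.98 CPM in nerves. Each group had 3 libraries outside the range of the other. The log2 change of -0.90 (SE 0.35, adjusted p = 0.099) did not pass, and without nerve library 6 it was -1.05 (adjusted p = 0.0372). Il31ra stayed uncalled in 11 of the 12 fits without 1 library (adjusted p up to 0.192). Lpar3 had 20.4, 23.6 and 38.9 CPM in neurofibromas, against 24.3, 38.4 and 49.96 CPM in nerves. Of the neurofibromas, 4 lay below every nerve. Its log2 change of -0.56 (SE 0.18, adjusted p = 0.0542) lay just outside the threshold. It was -0.66 (adjusted p = 0.012) without nerve library 6 and -0.71 (adjusted p = 0.0129) without neurofibroma library 5. Lpar3 stayed uncalled in 10 of the 12 fits without 1 library (adjusted p up to 0.107).

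Several receptors were highest or lowest in the same trigeminal library. Nerve library 6 was the lowest nerve for all 7 receptors, and neurofibroma library 5 the highest neurofibroma for 6 of 7, the exception being Mrgprb4 with its highest value in neurofibroma library 6. Nerve library 6 also had the lowest pan-neuronal level of the nerves, 8.46, where neurofibromas ran from 8.43 to 8.82 and nerves from 8.46 to 9.05 (mean log2(CPM + 1) of 12 neuronal genes, some of which, such as Avil and Pou4f1, are found mainly in sensory neurons). Its oligodendrocyte and astrocyte markers summed to 1357 CPM, the highest of the nerves, whose lowest was 56.7 CPM. Neurofibroma library 5 had the highest summed pan-neuronal CPM of its group, 8266, where the lowest was 6384. In bulk samples fewer cells of a type and less RNA per cell cannot be told apart.

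Relative to each library's pan-neuronal level, neurofibroma and nerve differed least for Mrgprx1 and most for Mrgprb5 and Il31ra. On the log2(CPM + 1) scale the mean difference from that level was -2.26 in neurofibromas and -2.11 in nerves for Mrgprd, and -5.99 in neurofibromas and -5.97 in nerves for Mrgprx1. It was -6.82 in neurofibromas and -6.06 in nerves for Mrgprb5, and -5.87 in neurofibromas and -5.28 in nerves for Il31ra. Mrgpra3 was the only receptor nearer to the pan-neuronal level in neurofibromas, at -5.43, than in nerves, at -5.76. With the pan-neuronal level as a covariate, the log2 change was -0.07 (SE 0.18) for Mrgprd, -0.03 (SE 0.22) for Mrgprx1, -0.29 (SE 0.16) for Lpar3 and -0.84 (SE 0.25, adjusted p = 0.0743) for Mrgprb5. No receptor was called in that fit, so the call of Mrgprb5 rests on the fit without the covariate. The spread of Lpar3 over neurofibromas had an SD of 0.199 after the pan-neuronal level was subtracted and 0.313 before, whereas that of Mrgprx1 was 0.185 after and 0.137 before.

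**Figure D2:**
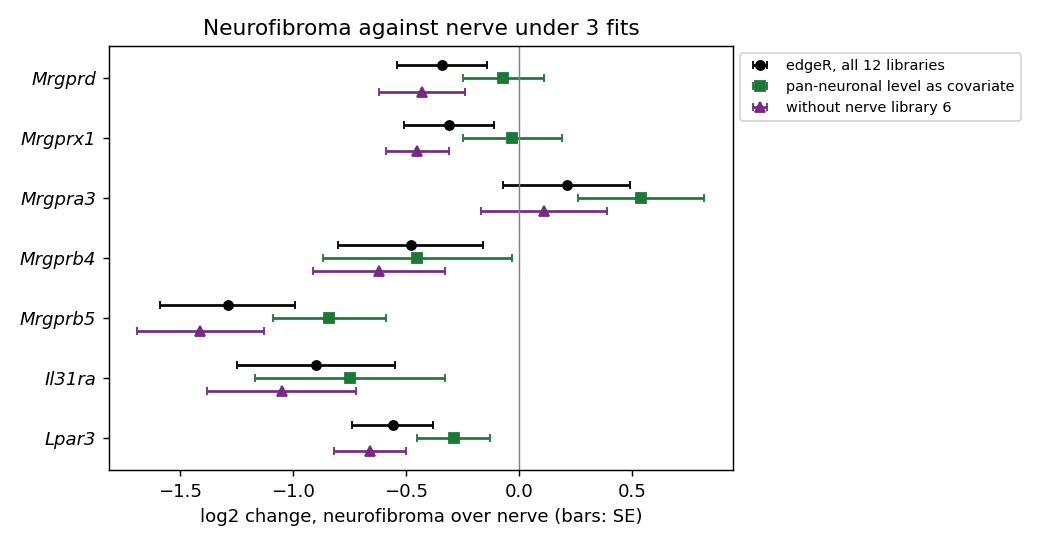
Log2 change of each receptor, neurofibroma over nerve (horizontal axis, bars are SE), under the fit to all 12 libraries, the same fit with the pan-neuronal level as covariate, and the fit without nerve library 6. Mrgprb5 lies farthest to the left in all 3 fits, at -1.29, -0.84 and -1.41.

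**Figure D3:**
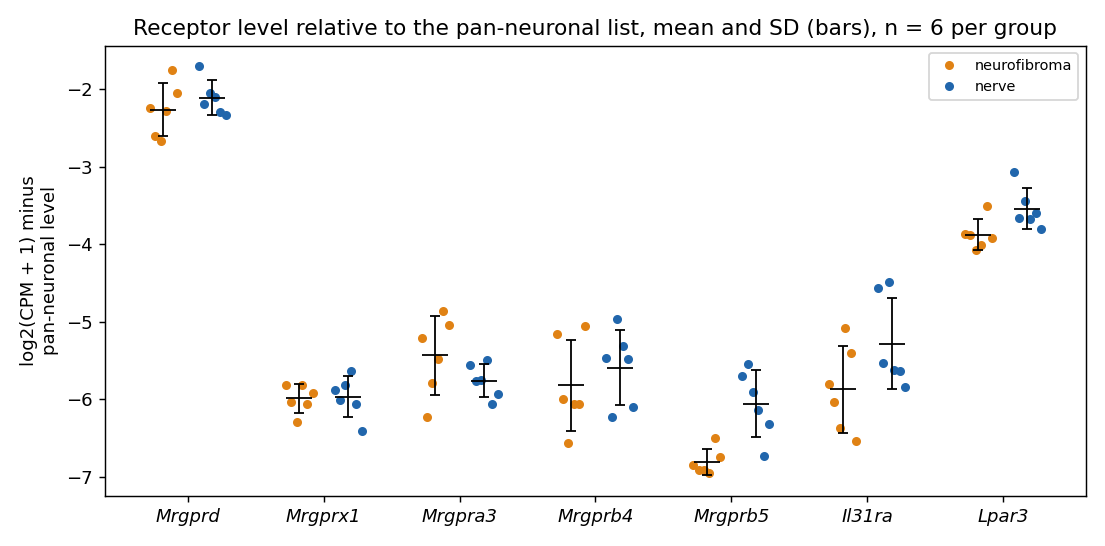
Level of each receptor minus the pan-neuronal level of its library, on the log2(CPM + 1) scale, for neurofibroma (left of each pair) and nerve, 1 point per library with mean and SD (n = 6 per group). Mrgprd lies at a mean of -2.26 in neurofibroma and -2.11 in nerve, and the points of the 2 groups overlap for every receptor.

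The genes with the pattern most like that of each receptor over the 12 trigeminal libraries were found by Pearson's r of log2(CPM + 1) among 11852 genes. These values describe libraries that share tissue and neuron content, and with so many genes ranked high values arise in any set. Mrgprd was most like Tmem45b and Plxnc1 (r = 0.93 each), Mrgprx1 like Dcaf6 and Prep (0.95 each), and Mrgpra3 like Calcb (0.89) and Trpa1 (0.88). Mrgprb4 was most like Paip2b (0.96) and Pcdhga11 (0.94), Mrgprb5 like Pitpnm2 (0.94) and Gnao1 (0.93), Il31ra like Fam83h (0.91) and Tgfbrap1 (0.88), and Lpar3 like Plcb3 (0.95). Without the 2 libraries farthest from the median, r for Calcb and Trpa1 with Mrgpra3 was 0.70 and 0.69, while the other pairs named stayed at 0.82 or above. The most like genes did not move alike in MPNST. Against neurofibroma the log2 change of Trpa1 was -9.57 and that of Tmem45b -5.08, both called, whereas Dcaf6 at -0.07 and Prep at 0.09 were not called. Trpa1 had 0 to 3 counts per MPNST library and passed the filter through the trigeminal libraries, so its call describes the table.

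In MPNST all 7 receptors fell to 0 or near it against both trigeminal groups. Of the 16537 genes tested between MPNST and neurofibroma 42% were called and 16.8% were called lower, and of the 16384 tested between MPNST and nerve 46% were called and 18.4% were called lower. All 7 receptors were called lower in both comparisons, and no MPNST library reached the lowest trigeminal library for any of them. All 7 passed the filter on low counts through the trigeminal libraries alone, so they had to differ, and the count of 7 describes the table. Such a lack of overlap, with MPNST lower, held for 16.2% of genes against neurofibroma and 15.5% against nerve. Both comparisons use the same 6 MPNST libraries. The median of all genes was shifted by 0.22 on the log2 scale in each.

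Mrgprx1, Mrgprb4 and Mrgprb5 had 0 counts in all 6 MPNST libraries. With a floor of 3 counts over the group, or 0.0269 CPM, Mrgprx1 was at least 188-fold lower in MPNST than in neurofibroma and at least 234-fold lower than in nerve. Mrgprb4 was at least 228-fold lower in MPNST than in neurofibroma and at least 317-fold lower than in nerve. Mrgprb5 was at least 91.4-fold lower in MPNST than in neurofibroma and at least 234-fold lower than in nerve. These bounds grow with the trigeminal level, so their order is no order of loss.

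Mrgpra3 had 1 count among all MPNST libraries, in library 3. Against 903 counts in neurofibromas that is a ratio of 938-fold lower, with a 95% counting interval from 168 to 37100, and against 746 counts in nerves 824-fold lower, from 147 to 32600. Mrgprd had 6 counts in MPNST, spread over 4 libraries, with 0, 0.0477 and 0.171 CPM as lowest, median and highest value, against the medians of 73.5 CPM in neurofibromas and 103.4 CPM in nerves. It fell by 10.21 on the log2 scale against neurofibroma (SE 0.55, adjusted p = 3.93e-07) and by 10.55 against nerve (SE 0.52, adjusted p = 2.88e-07). The pooled ratio was 1510-fold lower than neurofibroma, with a counting interval from 695 to 4120, and 1950-fold lower than nerve, from 896 to 5320.

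Il31ra and Lpar3 kept more counts in MPNST than the Mrgpr receptors. Il31ra had 9 counts, 4 in library 1, 1 in library 5 and 4 in library 6, and 0 in the other 3. It fell by 5.95 against neurofibroma (SE 0.79, adjusted p = 0.00019) and by 6.86 against nerve (SE 0.81, adjusted p = 7.92e-05), and the pooled ratios were 74.6-fold lower, from 39.1 to 164, and 144-fold lower, from 75.4 to 315. Lpar3 was the only receptor of the 7 found in all 6 MPNST libraries, with 33, 4, 1, 12, 20 and 7 counts in libraries 1 to 6, or 0.0702, 0.441 and 1.88 CPM as lowest, median and highest value. It fell by 5.01 against neurofibroma (SE 0.59, adjusted p = 8.67e-05) and by 5.58 against nerve (SE 0.60, adjusted p = 4.1e-05). The pooled ratios were 37.1-fold lower, from 29.6 to 47.2, and 55.7-fold lower, from 44.4 to 70.7. Lpar3 was highest in MPNST libraries 1 and 5, at 1.88 and 1.44 CPM, where Schwann cell markers summed to 1623 and 857 CPM, and lowest in library 3, at 0.0702 CPM, where they summed to 830 CPM.

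Neuron transcripts were also scarce in most MPNST, and their part in the fall of the receptors was not tested. The pan-neuronal level was 0.395 to 2.19 in MPNST libraries 1 to 5, against 8.58 ± 0.167 in neurofibromas and 8.78 ± 0.197 in nerves (SD, n = 6 each). MPNST library 6 stood apart with a pan-neuronal level of 7.56. Of the 12 pan-neuronal genes, 5 were called lower and 7 were not called in each MPNST comparison, and all 12 were called lower in each without library 6. In the fits that left out 1 other library, 3 or 4 were. Its pan-neuronal genes summed to 5345 CPM, and the 4 sympathoadrenal markers to 3085 CPM, against at most 1.12 CPM in the other MPNST. It held 705 CPM of Dbh, which marks noradrenergic cells, and 1139 CPM of Ret. The sensory neuron genes Pou4f1 and Scn10a were at 0.105 CPM each there. The receptors stayed near 0 in that library too, with 1 count of Mrgprd, 4 of Il31ra, 7 of Lpar3 and 0 of the other 4. Malignancy and the tissue sampled cannot be told apart in these comparisons, since neurofibromas and nerves are trigeminal samples rich in sensory neuron transcripts.

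**Figure D4:**
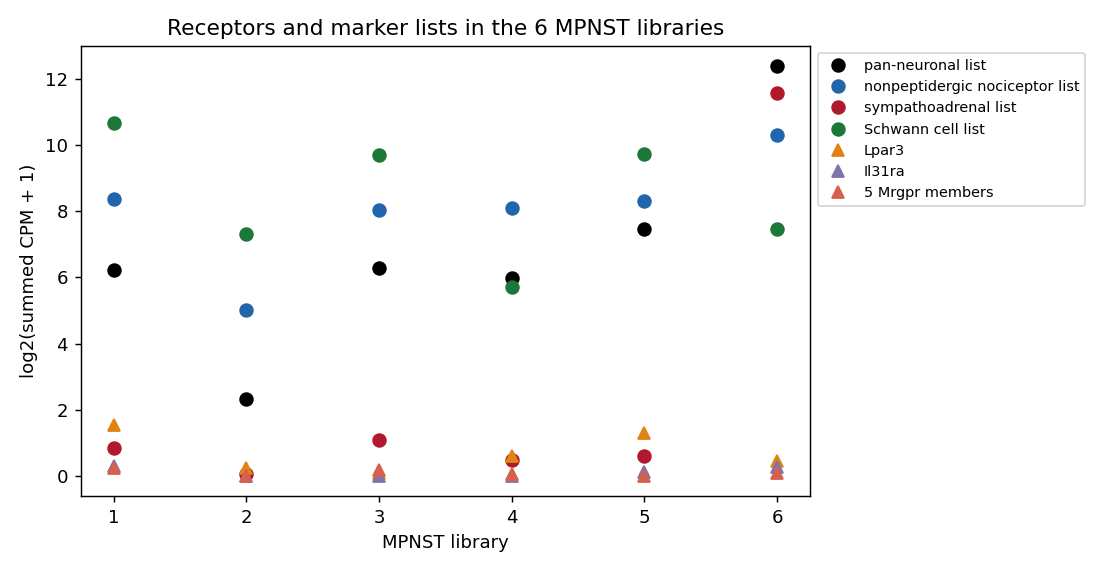
Summed CPM of marker lists (circles) and of Lpar3, Il31ra and the 5 Mrgpr receptors (triangles) in the 6 MPNST libraries, as log2(summed CPM + 1). Library 6 reaches 5345 CPM of pan-neuronal genes and 3085 CPM of sympathoadrenal markers, while its receptor triangles stay under 1 on the axis.

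The nonpeptidergic neuron genes outside the 7 receptors followed the same division only in part. In neurofibroma against nerve, 1 of 11 was called, Ret, a receptor of glial-derived growth factors, with a log2 change of -0.53 (SE 0.15, adjusted p = 0.034), and the call was lost in 8 of the 12 fits that left out 1 library (adjusted p up to 0.0739). Without nerve library 6, in which all 7 receptors were lowest, 6 of the 11 were called, all lower, and limma-voom called 5 over all libraries. Over all genes the calls also rose, from 2295 to 3817 without nerve library 6, and they rose with limma-voom too. Nerve library 6 had the lowest sum of the 11 genes among nerves, 1719 CPM, so leaving it out raises the nerve mean. In MPNST 8 of 11 fell against neurofibroma and 8 of 11 against nerve, where 16.8% and 18.4% of all genes tested were called lower. The pain-fibre sodium channels Scn10a and Scn11a led, at -10.34 (SE 0.72, adjusted p = 2.5e-06) and -9.67 (SE 0.68, adjusted p = 2.59e-06) against neurofibroma. Scn10a had 1 to 20 counts per MPNST library and Scn11a 0 to 12. Both passed the filter on low counts mainly through the trigeminal libraries, so these calls describe the table. Runx1, the transcription factor named above, averaged 83.9 CPM in MPNST, 54.4 CPM in neurofibromas and 70.8 CPM in nerves and was not called in any comparison (lowest adjusted p = 0.107). Gfra2 averaged 66.6 CPM in MPNST, 69.6 CPM in neurofibromas and 85.0 CPM in nerves and was not called either. Ret was also not called in MPNST, with 1139 CPM in MPNST library 6 and at most 10.3 CPM in the other MPNST. Without MPNST library 6 Ret was called lower against nerve, at -6.99 (adjusted p = 6.25e-06, edgeR).

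Itch receptors signal through G proteins, phospholipases and cation channels, and their neurons release peptides and glutamate. Of 8 itch transduction genes, 0 were called between neurofibroma and nerve by edgeR, DESeq2 or limma-voom, and 0 had an unadjusted p below 0.05 in edgeR. Plcb3, a phospholipase downstream of Mrgpr receptors, had the smallest p there, with a log2 change of -0.33 (SE 0.18, adjusted p = 0.243). In MPNST 5 of 8 fell and 1 rose against neurofibroma, and 5 of 8 fell and 2 rose against nerve. Of all genes tested, 16.8% were called lower and 25.3% higher against neurofibroma, and 18.4% lower and 27.6% higher against nerve. Genes that rose were thus no more frequent in this list than over all genes. The genes that rose are named after their values were seen. Ano1, a calcium-activated chloride channel, rose by 3.27 against neurofibroma (SE 0.84, adjusted p = 0.00906) and by 3.08 against nerve (SE 0.84, adjusted p = 0.0108), and by 1.96 and 1.76 without MPNST library 2. Gna11, a G protein subunit, rose by 0.55 against nerve (SE 0.19, adjusted p = 0.0301), a call lost in 7 of the 12 fits without 1 library (adjusted p up to 0.1). Trpa1 and Trpv1, the channels that carry itch and heat signals, fell by 9.57 (SE 0.43, adjusted p = 1.52e-07) and 6.71 (SE 0.81, adjusted p = 9.89e-05) against neurofibroma. They had 0 to 3 and 0 to 20 counts per MPNST library and passed the filter mainly through the trigeminal libraries, so their calls describe the table. Of 5 itch transmitters tested, 0 were called between neurofibroma and nerve by the 3 tools, 2 had an unadjusted p below 0.05 in edgeR, and 1 was called without nerve library 6. That last fit also called more of all genes. Sst, the somatostatin gene, averaged 2.79 CPM in neurofibromas and 17.7 CPM in nerves (log2 change -2.66, SE 0.86, adjusted p = 0.0564). Nerve library 6 carried that mean with 83.6 CPM, since the medians were 2.48 CPM in neurofibromas and 5.04 CPM in nerves, and the change was -0.70 without it. In MPNST 4 of 5 fell against neurofibroma and 5 of 5 against nerve, where 16.8% and 18.4% of all genes tested were called lower. The call of Sst against nerve, at -4.72 (SE 1.62, adjusted p = 0.0319), was lost in 5 of the 12 fits without 1 library (adjusted p up to 0.116), and its change was -2.82 without nerve library 6 and -9.64 without MPNST library 6. Against neurofibroma Sst was called only without MPNST library 6, at -7.03. Nmb, the neuromedin B gene, led with -5.10 (SE 0.37, adjusted p = 2.88e-06) against neurofibroma, followed by the glutamate transporter Slc17a6 at -9.99 (SE 0.81, adjusted p = 6.49e-06). Slc17a6, with 0 to 10 counts per MPNST library, and Sst, with a median of 0, passed the filter mainly through the trigeminal libraries. Their calls thus describe the table.

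For Il31ra, the shared signalling parts were present in all groups. Osmr, its partner subunit, named after its values were seen, averaged 53.0 CPM in MPNST, 36.1 CPM in neurofibromas and 32.7 CPM in nerves and was not called in any comparison of all libraries. Without MPNST library 6 it was called higher against neurofibroma, at 0.92 (adjusted p = 0.0127), and against nerve, at 1.04 (adjusted p = 0.00978). Of the 8 partners and JAK-STAT genes, 1 rose and 0 fell in neurofibroma against nerve, Stat5a by 0.67 (SE 0.19, adjusted p = 0.0367), a call lost in 7 of the 12 fits without 1 library (adjusted p up to 0.0867). In MPNST 1 rose and 0 fell against neurofibroma, the kinase gene Jak2 by 0.52 (SE 0.19, adjusted p = 0.0433), lost in 9 of 12 such fits (adjusted p up to 0.102), whereas 4 rose and 1 fell without MPNST library 6. Against nerve 3 rose and 1 fell, led by the feedback inhibitor Socs3 at 2.46 (SE 0.56, adjusted p = 0.00424). Over all genes tested, 25.3% were called higher in MPNST against neurofibroma and 27.6% against nerve. Il31, the ligand itself, had 0 counts in all 18 libraries.

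In MPNST, genes of the other LPA receptors and of LPA metabolism were called in both directions. The counts were near the shares over all genes tested, apart from the 3 of 9 lower against neurofibroma, which lay above its share. In neurofibroma against nerve, 2 of 9 genes of LPA receptors and metabolism rose and 0 fell. Lpar1, a receptor of Schwann cells and fibroblasts, averaged 174.6 CPM in neurofibromas and 110.4 CPM in nerves and rose by 0.65 (SE 0.17, adjusted p = 0.0261). Of all genes tested, 7.94% were called higher there. The call was lost in 4 of the 12 fits without 1 library, those without neurofibroma library 1, 4 or 6 or nerve library 2 (adjusted p up to 0.0591). Lpar4 rose by 0.93 (SE 0.28, adjusted p = 0.0458), a call lost in 10 of the 12 (adjusted p up to 0.108), while 4 rose and 1 fell without nerve library 6. The fit without nerve library 6 also called more of all genes. Between neurofibroma and nerve 3 of 8 Schwann cell markers and 4 of 5 fibroblast markers rose over all libraries (1 to 5 fibroblast markers in the fits without 1 library). Their part in these changes was not tested. In MPNST 2 rose and 3 fell against neurofibroma, with Lpar2 at 2.26 (SE 0.43, adjusted p = 0.00186). Lpar5 averaged 0.609 CPM in MPNST, 2.68 CPM in neurofibromas and 4.74 CPM in nerves and fell against neurofibroma (SE 0.43, adjusted p = 0.00341). Against nerve 3 rose and 2 fell, with Lpar6 at 2.58 (SE 0.49, adjusted p = 0.00159) and Lpar5 at -2.84 (SE 0.49, adjusted p = 0.000838). Over all genes tested, 25.3% were called higher and 16.8% lower against neurofibroma, and 27.6% higher and 18.4% lower against nerve.

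Of the 15 other Mrgpr and Mas1 receptors, 5 passed the filter in each comparison. Between neurofibroma and nerve 1 rose, Mrgprf, a relative found in smooth muscle and other mesenchymal cells, which averaged 9.88 CPM in neurofibromas and 3.28 CPM in nerves (log2 change 1.59, SE 0.49, adjusted p = 0.0468). Its call was lost in every fit that left out 1 library except that without nerve library 6 (adjusted p up to 0.111). In MPNST 3 of 5 fell against neurofibroma and 3 of 5 against nerve, where 16.8% and 18.4% of all genes tested were called lower. Mrgpra2b averaged 0.0262 CPM in MPNST, 8.05 CPM in neurofibromas and 6.26 CPM in nerves, and its log2 change was -7.75 against neurofibroma (SE 0.72, adjusted p = 1.79e-05) and -8.68 in that comparison without MPNST library 1. Its counts are uncertain, because 87% of its 31-base sequences occur in other genes, chiefly Mrgpra2a. Mas1, an angiotensin peptide receptor, was at -3.32 (SE 0.69, adjusted p = 0.00287) against neurofibroma, and Mrgpre at -2.21 (SE 0.48, adjusted p = 0.00316) against nerve. Mrgpra2b and Mas1, with at most 2 and 6 counts per MPNST library, passed the filter mainly through the trigeminal libraries, so their calls describe the table.

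Genes of other itch receptors, a list not defined by cell type, were more often called higher than lower in MPNST. Not every MPNST library was high. Their summed level was 254.4 to 536.9 CPM in MPNST libraries 1, 3, 4 and 5, and 53.2 and 58.5 CPM in libraries 2 and 6, against 120.8 to 133.9 CPM in neurofibromas and 118 to 127.1 CPM in nerves. MPNST libraries 2 and 6 thus lay below every trigeminal library. Of 13 tested, 7 rose and 2 fell against neurofibroma, and 8 rose and 2 fell against nerve. Of all genes tested 25.3% were called higher against neurofibroma and 27.6% against nerve. Crlf2, the receptor of thymic stromal lymphopoietin, averaged 15.3 CPM in MPNST, 4.30 CPM in neurofibromas and 5.87 CPM in nerves and rose by 1.93 against neurofibroma (SE 0.37, adjusted p = 0.00183). Il7r, its partner, rose by 4.78 against nerve (SE 0.98, adjusted p = 0.0024), and by 3.76 without MPNST library 1. Il7r was tested only in the comparisons with MPNST, where it passed the filter mainly through MPNST, so its calls describe the table. The serotonin receptor Htr1f fell by 4.96 against neurofibroma (SE 0.81, adjusted p = 0.000742), and its change was -7.13 without MPNST library 4. With 0 to 9 counts per MPNST library, Htr1f passed the filter mainly through the trigeminal libraries, so its call describes the table. In the same comparisons all 7 macrophage markers were called higher, and their summed CPM ran from 157.9 to 2986 in MPNST, 130.4 to 299.3 in neurofibromas and 39.2 to 203 in nerves. Their part in these changes was not tested. Between neurofibroma and nerve 1 of 12 was called, the serotonin receptor Htr7 at -0.50 (SE 0.15, adjusted p = 0.0434), lost in 9 of the 12 fits without 1 library (adjusted p up to 0.0863).

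Of the 8 genes of itch-evoking ligands, 3 passed the filter between neurofibroma and nerve. By edgeR 0 were called, 2 with an unadjusted p below 0.05, against 1 by DESeq2, 2 by limma-voom and 2 without nerve library 6. DESeq2, limma-voom and the fit without nerve library 6 also called more of all genes. Ctss, the cathepsin S gene, was nearest at a log2 change of 1.22 (SE 0.42, adjusted p = 0.0665). In MPNST 3 of 4 tested rose against neurofibroma, where 25.3% of all genes tested were called higher. Penk, the precursor of enkephalins and of BAM peptides, which act on Mrgprx1, averaged 97.6 CPM in MPNST, 2.17 CPM in neurofibromas and 7.47 CPM in nerves. It rose by 5.49 against neurofibroma (SE 1.04, adjusted p = 0.00172) and by 3.86 without MPNST library 4. Against nerve it rose by 3.74 (SE 1.35, adjusted p = 0.0387), a call lost in 7 of the 12 fits without 1 library (adjusted p up to 0.144). That change was 2.12 without MPNST library 4 and 6.17 without nerve library 6, whose 38.2 CPM carried the nerve mean above a median of 0.964 CPM. Tslp, the gene of thymic stromal lymphopoietin, rose by 1.79 against neurofibroma (SE 0.38, adjusted p = 0.00321), with means of 1.09 CPM in MPNST and 0.3597 CPM in neurofibromas. Tslp was tested in this comparison alone, where it passed the filter mainly through MPNST, so its call describes the table. Ctss rose by 4.07 against nerve (SE 0.79, adjusted p = 0.00177).

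How well the reads tell the 7 receptors from their relatives differed by gene. In GENCODE M21, 0% of the 31-base sequences of Mrgprd occurred in another gene, 0.619% of those of Lpar3 and 2.07% of those of Il31ra. The share was 22.2% for Mrgprx1, mostly with pseudogenes, and 21.4% for Mrgpra3, with Mrgpra4 and Mrgpra14. It was 10.6% for Mrgprb4 and 7.45% for Mrgprb5, in both cases chiefly with each other. Each estimated count was divided by the most frequent value near 1 in its library (0.9278 to 1.0038), taken as 1 read. So scaled, the values of Mrgprx1, Mrgpra3, Mrgprb4, Mrgprb5 and Lpar3 were within 0.05 read of a whole number wherever above 0. Those of Mrgprd were so in 14 of 16 libraries, those of Il31ra in 2 of 15 and those of the near-identical Mrgpra2a in 1 of 11. The divisor was rounded, so the gap also grows with the count, as for Mrgprd. It is thus no plain measure of shared reads.

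Over the 18 libraries, the estimated counts summed to between 13886399 and 23652959 in MPNST, between 15307987 and 20056513 in neurofibromas and between 14303986 and 20335697 in nerves, so 1 count stood for 0.0423 to 0.0720 CPM in MPNST. Counting intervals and floors cover counting error only. Besides library 6, MPNST library 2 held 279200 CPM of salivary gland markers and MPNST library 3 held 33580 CPM of skeletal muscle markers. Library 6 also held 2200 CPM of pancreatic acinar markers, against at most 29.5 CPM in the other MPNST. All 7 receptors were also called lower in MPNST without libraries 2 and 6 and without libraries 2, 3 and 6. As stated above, they had to differ, so these calls describe the table.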

How the data were processed

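RNA was extracted with the Qiagen RNeasy Plus Mini kit and made into libraries with the KAPA stranded mRNA kit, per the labels' protocols. The authors deposited gene-level estimated counts, with fractions and without further normalization. Salmon 1.4.0, FastQC, DESeq2 and the build GRCm39 are named in the submitters' processing notes, while no source used here gives Salmon's settings or annotation. Estimation splits reads between near-identical genes. Counts were rounded to whole numbers. All 18 columns were matched to samples by name, 0 columns had no sample, 0 rows lacked a gene name and 0 pairs of libraries were identical.

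Each pair of groups was fitted on the whole table by the quasi-likelihood test of edgeR 4.0.16 under R 4.3.3, after filterByExpr and TMM scaling (glmQLFit, glmQLFTest), two-sided, with calls at a Benjamini-Hochberg adjusted p below 0.05. CPM used library totals. The pseudocount was 1, and the floor for a group at 0 was 3 counts over the group. Intervals on pooled counts are exact at 95%. The fits were tested on simulated data with log2 changes of 2 up or down. They recovered 94.3% of the changed genes between neurofibroma and nerve. The share was 49.5% between MPNST and neurofibroma and 42.3% between MPNST and nerve. A gene not called in MPNST can thus have changed. Alternatives were RLE and upper quartile normalization, no filter, a filter of 1 CPM in 6 libraries, DESeq2 1.42.0, limma-voom (limma 3.58.1), a threshold of 0.01, 1 fit to all 18 samples, the pan-neuronal level as covariate (neurofibroma against nerve), and libraries left out.

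The receptors, gene lists and tests were chosen with earlier results of these data known. Named genes were all 7 receptors, up to 2 called genes with the smallest p of each list (1 where none was called) and the 2 genes most like each receptor with a mean of at least 5 CPM. A gene that this rule named is left out. The files use GRCm39 and the reference at hand is GRCm38, so no coordinates of the files are given, and RefSeq sequences and GENCODE M21 transcripts serve as sequence only. Proteins and an upstream window of Mrgpra3 were not used here.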

Additional observations from a re-analysis of the deposited data

Results flagged for a closer look

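Each receptor's CPM was checked in each group of 6 libraries for a value far from the others (Dixon's test), and 2 of 18 groups were singled out. Chance does so in about 1 in 20 groups. Mrgpra3 had 0.0702 CPM in MPNST library 3, which is 1 count, against 0 in the other 5 MPNST libraries. Any single count among zeros would be singled out, so the rate given does not apply to it. Lpar3 had 38.9 CPM in neurofibroma library 5, where the next highest neurofibroma had 24.8 CPM. The log2 change of Lpar3, neurofibroma over nerve, was -0.71 (adjusted p = 0.0129, edgeR) without that library and -0.56 (adjusted p = 0.0542) with it.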

How the results depend on the processing

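Between neurofibroma and nerve the count of called genes, 2295, depended on the setting. It was 1438 with no filter, 3509 with DESeq2, 4026 with limma-voom, 2 in 1 fit of all 18 samples, 520 at an adjusted p below 0.01 and 804 with the pan-neuronal covariate, and 1147 to 3817 over the 12 fits without 1 library. The extremes were the fit without neurofibroma library 4 and that without nerve library 6, and the cause was not tested. It was also 1355 without neurofibroma library 2, 1471 without neurofibroma library 6 and 1404 without nerve library 5. Of the 7 receptors 1 was called (Mrgprb5), against 2 with the filter of 1 CPM, 3 with DESeq2, 3 with limma-voom, 3 without nerve library 6 and neurofibroma library 1 together, and 0 in the fit of all 18, at an adjusted p below 0.01 and with the covariate. Without 1 library it was 1 to 4. Lpar3 was called with the 1 CPM filter (-0.59, adjusted p = 0.0417), DESeq2 (-0.57, adjusted p = 0.0184) and limma-voom (-0.65, adjusted p = 0.00914). Il31ra was called with DESeq2 (-0.91, adjusted p = 0.0476) and limma-voom (-1.06, adjusted p = 0.0328). Mrgprb5 was at -1.27 (adjusted p = 0.315) in the fit of all 18, which shares its spread with MPNST. The change of Mrgpra3 was -0.01 to 0.37 without 1 library, negative only without neurofibroma library 5.

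Between MPNST and neurofibroma 6948 genes were called, with 4063 at an adjusted p below 0.01, 11247 without MPNST libraries 2, 3 and 6, and 5899 to 9123 without 1 library. Between MPNST and nerve 7534 were called, with 4633 at an adjusted p below 0.01 and 6508 to 9447 without 1 library. All 7 receptors were called lower in both comparisons in every setting run and without any 1 library. These calls add no support of their own, since the 7 passed the filter through the trigeminal libraries alone. With 0 to 3 counts of the 5 Mrgpr receptors together in each MPNST library, differences among these libraries were not detectable at this depth. No paired analysis was possible because the labels give no shared replicate numbers.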

Other observations

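The mast cell receptor Mrgprb2 averaged 0.342 CPM in MPNST, 0.221 CPM in neurofibromas and 0.0625 CPM in nerves and did not pass the filter on low counts. Its relative Mrgprb1 averaged 0.876 CPM in MPNST and 0.581 CPM in neurofibromas (log2 change 0.74, SE 0.67, adjusted p = 0.392, edgeR), and 0.524 CPM in nerves. Mast cell markers summed to 12.4 to 85.5 CPM in MPNST, 44.5 to 85.4 CPM in neurofibromas and 64.4 to 92.7 CPM in nerves. Most of the trigeminal sum was Kit, with means of 17.7 CPM in MPNST, 47.6 CPM in neurofibromas and 64.9 CPM in nerves. The means of Tpsb2, Tpsab1, Cma1, Cpa3, Mcpt4 and Fcer1a ran the other way, as for Tpsb2 at 9.07, 3.48 and 2.37 CPM. Hdc followed neither order, so the sum gives no order of mast cell content. Of 7 tested, 0 were called between neurofibroma and nerve by edgeR, DESeq2 or limma-voom (1 with an unadjusted p below 0.05 in edgeR).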
